A study of Mus musculus with 32 samples.

Results

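The genes described here are 7 members of the Siglec family, the sialic acid-binding lectins of the immunoglobulin superfamily: Cd22, Siglecg, Siglece, Cd33, Siglecf, Siglec1 and Siglech. They were chosen by symbol, 7 of the 24940 genes in the expression table, and all 7 passed the filter of a mean of at least 1 TPM that left 12277 genes for testing. Levels were measured by RNA-seq in untreated, sorted lung phagocytes of DBA2J and C57BL6J mice, which are inbred laboratory strains. The groups were alveolar macrophages (AM, the phagocytes of the airspaces), interstitial macrophages (IM, of the lung wall), and monocytes labelled inflammatory (iMo) or patrolling (pMo), in each strain, with 2 RNA libraries per group and 16 in all. The source field of the labels calls the iMo and pMo macrophages, and the mice's age, sex and number are not given in the sources used here. ATAC-seq, which marks open chromatin, was available as 8 lists of reproducible peaks, 1 per cell type and strain, each made from 2 libraries. The labels do not tie the libraries of a group to separate animals, and the p-values therefore speak only to the spread among libraries, which may be technical.

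Siglecs are receptors that bind sialic acid on the sugars of the same cell, other cells or microbes. Most carry tyrosine motifs in the cytoplasmic tail (ITIMs) that, when phosphorylated by Src family kinases, recruit the phosphatases SHP-1 and SHP-2 and damp activating signals. Cd22 and Siglecg are best known as brakes on the B cell receptor, Siglece and Cd33 are receptors of the myeloid lineage, and Siglecf is the classical surface marker that alveolar macrophages share with eosinophils. Siglec1 (sialoadhesin, CD169) lacks such motifs and serves in adhesion and capture by macrophages. Siglech pairs with the adaptor DAP12 and is used as a marker of plasmacytoid dendritic cells and microglia.

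In the deposited table, on mm10, 6 of the genes lie on chromosome 7 and Siglec1 on chromosome 2. Siglecf (NM_001271019, chr7:43351341-43359470, plus strand), Siglecg (NM_172900, chr7:43408280-43418349, plus strand), Cd33 (NM_021293, chr7:43527456-43533171, minus strand) and Siglece (NM_031181, chr7:43651070-43660161, minus strand) are neighbours in one cluster. Cd22 (NM_001043317, chr7:30865404-30880342, minus strand) and Siglech (NM_178706, chr7:55768184-55778925, plus strand) lie elsewhere on that chromosome, and Siglec1 (NM_011426) is at chr2:131069220-131086765 on the minus strand. The gene's length in the table was its whole span, introns included, for 99.2% of rows, so TPM here is per base of gene span. Levels are therefore compared between cell types and strains within a gene, and not between genes.

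Promoters of 6 of the 7 genes, 250 bases before and 50 after the start site, were found in the RefSeq table (GRCm38.p6, the mm10 assembly). Among the 15 pairs of these promoters, Cd33 and Siglecf shared a stretch that no other pair had. Their best local alignment scored 43 (1 per match, -1 per mismatch, -3 to open a gap), against 12 for the next pair. It had 65 identical letters in 85 columns (76.5%), with 1 gap, and a longest identical run of 16 bases. Both promoters are shown 5′ to 3′ with the aligned stretch in capitals.
Cd33, chr7:43533122-43533421, minus strand: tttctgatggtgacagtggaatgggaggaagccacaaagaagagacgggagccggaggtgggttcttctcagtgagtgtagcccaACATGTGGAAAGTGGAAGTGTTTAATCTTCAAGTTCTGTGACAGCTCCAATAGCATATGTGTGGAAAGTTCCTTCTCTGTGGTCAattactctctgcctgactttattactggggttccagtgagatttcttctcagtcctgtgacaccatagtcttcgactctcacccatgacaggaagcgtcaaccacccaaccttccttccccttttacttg
Siglecf, chr7:43351091-43351390, plus strand: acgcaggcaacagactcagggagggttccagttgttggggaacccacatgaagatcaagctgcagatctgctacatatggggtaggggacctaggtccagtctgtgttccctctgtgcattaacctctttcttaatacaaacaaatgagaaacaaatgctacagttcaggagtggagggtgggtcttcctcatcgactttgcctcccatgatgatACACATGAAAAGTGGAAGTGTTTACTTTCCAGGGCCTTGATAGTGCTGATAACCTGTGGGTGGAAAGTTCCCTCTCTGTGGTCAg

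The stretch lies at -165 to -81 from the Cd33 start site and at -35 to 48 from the Siglecf start site. In Cd33, 68 of its 85 bases fell in an open region (chr7:43533096-43533319) that was present in all 8 peak lists. In Siglecf all 84 bases fell in an open region (chr7:43351232-43351477) present in 3 lists, AM DBA2J, AM C57BL6J and pMo C57BL6J. The region over most of the shared letters was thus listed 8 times at Cd33, and the region over all of them 3 times at Siglecf.

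A search of the promoters on either strand for GAGGAA, the core letters bound by the myeloid factor PU.1, found 3 matches in Siglece, 1 each in Cd33 (at -226), Siglecf (at -65) and Siglech (at -4), and none in Siglecg at its deposited start. The window of another RefSeq start of Siglecg, at -41 from the deposited one, held 2 matches, at -241 and -212 from that start. Such a match was present in 28.1% of the 32544 promoters in the table. The Siglece promoter is shown with its 3 matches in capitals, at -87, -36 and -11 and all on the strand opposite to the transcript (TTCCTC as written). Cd22 is shown because its strain difference was the largest of the family, and its window holds no match to that core or to the other 4 motifs searched: TTNNGCAA (C/EBP), TGANTCA (AP-1), TTCNNNGAA (STAT) and the interferon-stimulated response element (ISRE). These 4 were found in 10.8%, 7.79%, 8.33% and 3.45% of all promoters, in that order. The letters of GAGGAA can overlap those of the ISRE, and no 2 matches overlapped in these promoters. The RefSeq start site of Cd22 lies 1314 bases inside the start used in the deposited table, so the window printed is not the one at the deposited start.
Siglece, chr7:43660112-43660411, minus strand: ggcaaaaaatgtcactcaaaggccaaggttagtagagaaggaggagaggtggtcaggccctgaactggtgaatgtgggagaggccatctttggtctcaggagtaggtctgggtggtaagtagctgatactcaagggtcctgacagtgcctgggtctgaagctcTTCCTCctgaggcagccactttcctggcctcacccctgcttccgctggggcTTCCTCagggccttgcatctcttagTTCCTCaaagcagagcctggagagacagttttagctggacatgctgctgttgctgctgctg
Cd22, chr7:30878979-30879278, minus strand: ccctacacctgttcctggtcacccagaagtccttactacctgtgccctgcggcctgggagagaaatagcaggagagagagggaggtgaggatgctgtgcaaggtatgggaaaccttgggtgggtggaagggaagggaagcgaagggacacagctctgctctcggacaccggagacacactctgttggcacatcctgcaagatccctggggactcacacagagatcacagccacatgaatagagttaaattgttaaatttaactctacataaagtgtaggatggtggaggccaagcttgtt

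The whole table, converted back to reads, gave 6676151 to 22616615 reads in genes per library. The ribosomal entries Rn45s and Mir6236 equalled 51.5 to 55.6% of the nominal TPM total in AM libraries and 14.3 to 43.2% in the others. Comparisons of cell types within a single strain were fitted on TPM as deposited only. Replicates differed by more than counting noise in every group, and their log2 levels correlated at 0.877 in IM C57BL6J, the lowest, to 0.974 in AM C57BL6J. Marker lists of the 4 sorted types were each highest in their own type in every library. For AM the 10 markers summed to 3572 to 3876 TPM in AM DBA2J and 3947 to 4140 TPM in AM C57BL6J, and to at most 2002 TPM in any other group. Neutrophil markers (10 genes) stood at 4096 to 4755 TPM in IM DBA2J and 2904 to 3166 TPM in IM C57BL6J, against at most 301 TPM in the other groups. In bulk RNA of sorted cells, fewer cells of a type and less RNA per cell cannot be told apart.

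Cd22, the inhibitory B cell co-receptor, had the largest strain difference of the family, and its direction was opposite in AM and in the other 3 cell types. In pMo it stood at 789 and 1033 TPM in DBA2J, against 42.4 and 51.4 TPM in C57BL6J. In iMo it stood at 148 and 187 TPM in DBA2J, against 6.40 and 10.3 TPM in C57BL6J. In IM it stood at 185 and 183 TPM in DBA2J, against 56.1 and 29.8 TPM in C57BL6J. Every DBA2J library of these 3 types was above every C57BL6J library. In AM the order was turned, with 2.31 and 4.40 TPM in DBA2J against 50.9 and 47.5 TPM in C57BL6J. Here both DBA2J libraries were below both C57BL6J libraries. The values rest on 117 to 25115 reads per library.

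**Figure D1:**
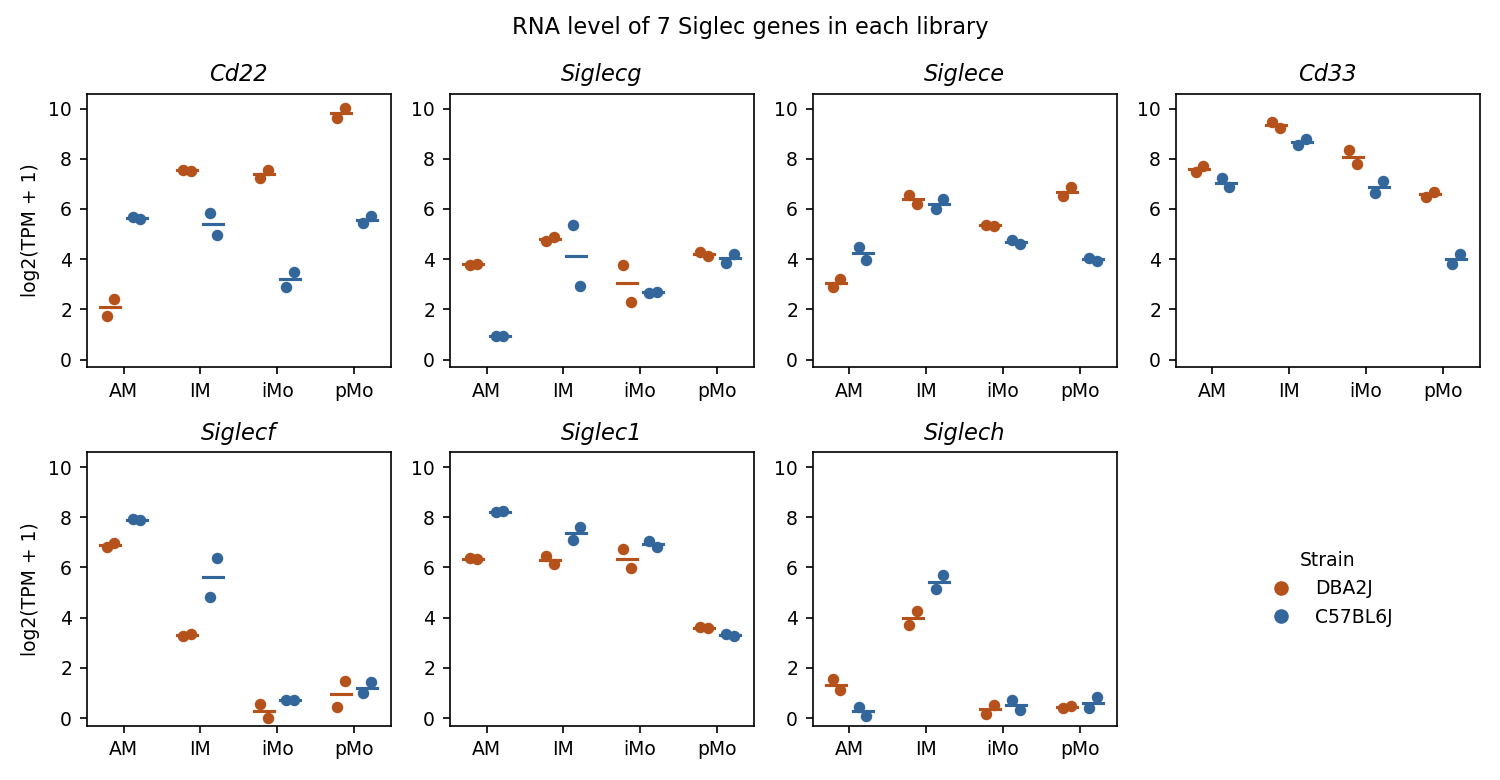
RNA level as log2(TPM + 1) of each Siglec gene by cell type, with a point per library, a bar at the mean of 2 libraries, and DBA2J left of C57BL6J. Cd22 in DBA2J lies below C57BL6J in AM and above it in IM, iMo and pMo, while Cd33 lies higher in DBA2J in all 4 types.

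The DBA2J mean of Cd22 was 19.4 times the C57BL6J mean in pMo, 20.0 times in iMo and 4.29 times in IM. In AM the DBA2J mean was 0.0682 times the C57BL6J mean. On the log2(TPM + 1) scale, which understates changes of low genes, the strain differences by limma were 4.24 ± 0.32 in pMo (SE, Benjamini-Hochberg adjusted p = 2.14e-05) and 4.19 ± 0.32 in iMo (limma, adjusted p = 1.72e-05). They were 2.14 ± 0.32 in IM (limma, adjusted p = 0.0022) and -3.57 ± 0.32 in AM (limma, adjusted p = 6.45e-05). Among the 12277 genes tested, Cd22 ranked 20th from the highest in pMo and 28th in iMo, and 15th from the lowest in AM. Averaged over the 4 types it was 1.75 ± 0.16 higher in DBA2J (limma, adjusted p = 2.73e-05), a mean that joins differences of opposite sign.

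The strain difference of Cd22 itself differed between cell types. Tested as an interaction of strain and cell type, it had a limma F-test adjusted p of 1.73e-05 and the 4th largest F of 12277 genes. The difference in AM minus that in pMo was -7.81 ± 0.45 log2 units, and minus that in iMo -7.76 ± 0.45 (limma, adjusted p = 9.14e-06 and 1.48e-05). IM differed from iMo by -2.05 ± 0.45 (limma, adjusted p = 0.0458) and from pMo by -2.10 ± 0.45 (limma, adjusted p = 0.0385). Between iMo and pMo the 2 strain differences were -0.05 ± 0.45 apart, which did not pass the test (limma, adjusted p = 1).

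The order of Cd22 over cell types was therefore not the same in the strains. In DBA2J it was highest in pMo, then IM and iMo, then AM. Only IM and iMo, which were 0.15 ± 0.32 log2 units apart, did not differ beyond the spread there (limma, adjusted p = 0.766). In C57BL6J, AM, pMo and IM lay together at 49.2 ± 2.36, 46.9 ± 6.38 and 43.0 ± 18.6 TPM (SD, n = 2), and no pair of them passed the test. That comparison was not refitted after rescaling the libraries. In the mean of the strains, AM minus IM was -2.60 as deposited and reached -1.76 under other settings. AM minus pMo was -3.83 as deposited and reached -3.36. Only iMo stood apart in C57BL6J, at 8.37 ± 2.79 TPM, lower than each of the other types. AM minus iMo was 2.45 ± 0.32 in C57BL6J (limma, adjusted p = 6.61e-05) and -5.31 ± 0.32 in DBA2J (limma, adjusted p = 2.24e-07), with opposite signs.

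B cell markers were measured beside Cd22, since the gene is a marker of that lineage. Of a 12-gene list with Cd79a and Ms4a1, 11 genes were measured. They summed to 210 to 352 TPM in pMo DBA2J against 68.6 to 120 TPM in pMo C57BL6J, and to 91.7 to 147 TPM in iMo DBA2J against 61.4 to 79.9 TPM in iMo C57BL6J. In IM the sums were 254 to 270 TPM in DBA2J and 90.8 to 372 TPM in C57BL6J. In AM they were 15.0 to 20.9 TPM in DBA2J and 4.98 to 8.34 TPM in C57BL6J, with no marker at 0 in any library, so in AM the B cell sum was higher where Cd22 was lower. Of the 11 markers, 5 rose in DBA2J in the mean of the types (limma, adjusted p under 0.05), where 4.37% of all genes rose, with a median log2 difference of 0.77 against -0.06 over all genes. Within single types 1 of the 11 was called, in pMo, and none in AM, IM or iMo.

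Cd22 did not keep a fixed ratio to the B cell sum. It was 10.2 and 5.70 times the sum in AM C57BL6J, and 2.24 and 4.93 times in pMo DBA2J. In iMo it was 1.01 and 2.04 times the sum in DBA2J, against 0.104 and 0.129 times in C57BL6J. In all other libraries the ratio lay at 0.151 to 0.731. As the genes differ in span, these ratios are compared between libraries only. The second Siglec of B cells, Siglecg, kept closer to that sum outside AM DBA2J, at 0.0425 to 0.197 times. In AM DBA2J it was 0.849 and 0.621 times the sum. Whether B cell RNA has a part in the Cd22 levels was not tested. T and NK cell markers (8 genes) went the other way in the monocytes, where Cd22, Cd33 and, in pMo, Siglece were higher in DBA2J. They summed to 3.91 to 6.34 TPM in iMo DBA2J against 42.7 to 64.8 TPM in iMo C57BL6J, and to 12.1 to 43.2 TPM in pMo DBA2J against 91.6 to 111 TPM in pMo C57BL6J. Of the 7 tested, 2 were lower in DBA2J in each of these types (limma, adjusted p under 0.05). Among all 12277 genes, 265 were lower in iMo and 282 in pMo. The part of these markers in the Siglec levels was not tested.

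**Figure D2:**
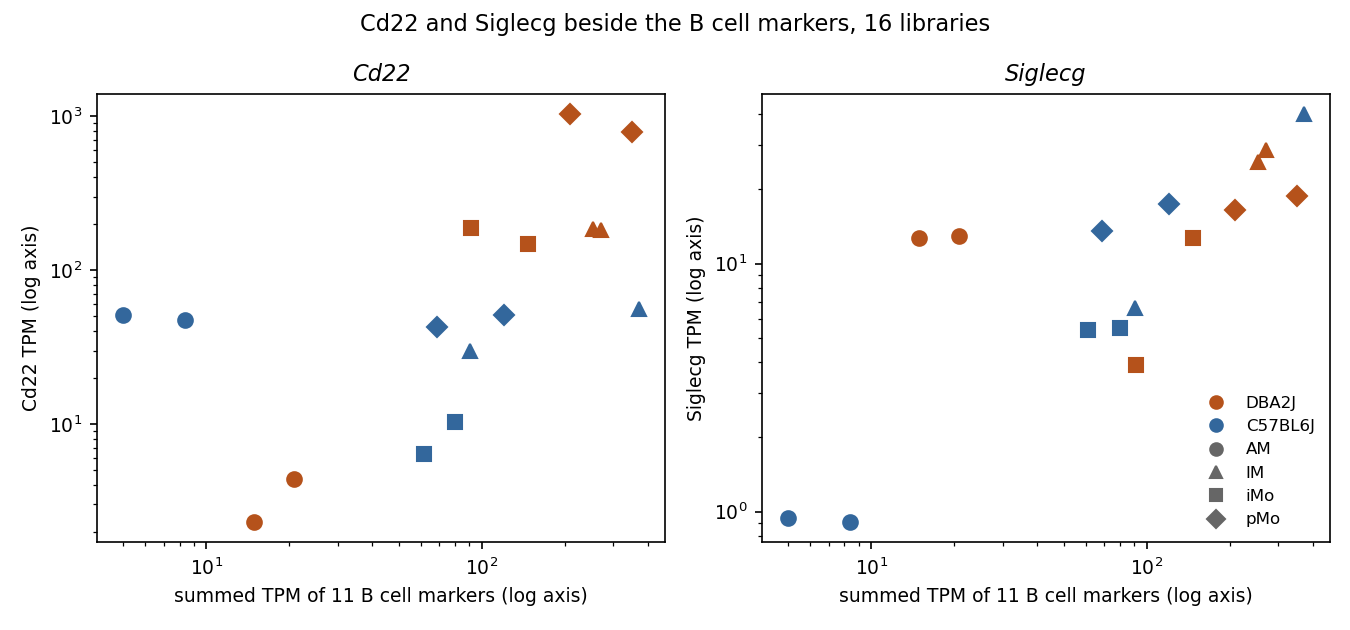
TPM of Cd22 (left) and Siglecg (right) against the summed TPM of 11 B cell markers, both axes on log scales, with a point for each of 16 libraries. Cd22 stands highest for its B cell sum in AM C57BL6J (47.5 and 50.9 TPM) and pMo DBA2J (789 and 1033 TPM). It comes next in iMo DBA2J (148 and 187 TPM). Siglecg stands high for its sum in AM DBA2J (12.7 and 12.96 TPM).

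Siglecg, the other brake on B cell receptor signals, differed between strains in AM. It stood at 12.7 and 12.96 TPM in AM DBA2J, against 0.945 and 0.908 TPM in AM C57BL6J, a ratio of 13.8. The groups did not overlap, and the values rest on 399 and 456 reads in DBA2J against 22 and 35 in C57BL6J. The log2 difference was 2.84 ± 0.62 (limma, adjusted p = 0.0313), opposite in sign to that of Cd22 in the same cells. The call was lost without any 1 of the 4 AM libraries, with adjusted p of 0.151 to 0.201 by limma, also without either IM DBA2J or either pMo DBA2J library (0.0529 to 0.0544), and without a filter on low values (0.0624).

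In the other 3 types Siglecg did not pass the test between strains. In IM it was 25.7 and 28.7 TPM in DBA2J and 40.2 and 6.60 TPM in C57BL6J, so the C57BL6J pair enclosed the DBA2J pair. The C57BL6J library with more Siglecg also had the larger B cell sum, 372 against 90.8 TPM. Without that library, IM C57BL6J replicate 1, the log2 difference in IM was 1.89 (limma, adjusted p = 0.0223), against 0.67 with it (limma, adjusted p = 0.551). In iMo Siglecg was 12.7 and 3.90 TPM in DBA2J and 5.38 and 5.51 TPM in C57BL6J, and in pMo 18.7 and 16.5 TPM in DBA2J and 13.5 and 17.4 TPM in C57BL6J. In all 3 types the strains overlapped.

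Siglece, an inhibitory receptor of mouse myeloid cells, was higher in DBA2J in pMo and lower in AM. In pMo it stood at 90.8 and 116 TPM in DBA2J, against 15.6 and 14.2 TPM in C57BL6J. In AM it stood at 6.45 and 8.24 TPM in DBA2J, against 21.6 and 14.7 TPM in C57BL6J. Neither pair of groups overlapped, and the sign was the same as for Cd22 in both types. The log2 differences were 2.70 ± 0.22 in pMo (limma, adjusted p = 4.89e-05) and -1.19 ± 0.22 in AM (limma, adjusted p = 0.0118). The AM call was lost without AM DBA2J replicate 1 or AM C57BL6J replicate 1 (limma, adjusted p = 0.124 and 0.154). In iMo, with 39.7 and 39.5 TPM in DBA2J against 26.3 and 23.2 TPM in C57BL6J, the difference did not pass the test (limma, adjusted p = 0.169). In IM the strains overlapped, with 94.2 and 72.2 TPM in DBA2J and 62.9 and 83.4 TPM in C57BL6J.

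The strain difference of Siglece depended on the cell type (F-test by limma, adjusted p = 0.000384). The differences in AM, IM and iMo minus that in pMo were -3.89 ± 0.31, -2.52 ± 0.31 and -2.04 ± 0.31 log2 units (limma, adjusted p = 8.91e-05, 0.00307 and 0.0413). In DBA2J pMo and IM had the highest levels and did not differ (limma, adjusted p = 0.304). In C57BL6J IM stood above the other 3 types, at 73.1 ± 14.5 TPM (SD, n = 2). There iMo, AM and pMo followed, and no pair of them differed by the test. Neutrophil markers were also highest in IM, at 2904 to 4755 TPM, and their part in the Siglece levels was not tested.

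Cd33, named for the human myeloid antigen CD33, was higher in DBA2J in each of the 4 types without overlap of the libraries. In pMo it stood at 87.5 and 102 TPM in DBA2J, against 13.02 and 17.5 TPM in C57BL6J, a ratio of 6.22. In iMo it stood at 323 and 223 TPM in DBA2J, against 99.7 and 138 TPM in C57BL6J. The strain difference passed the test in these monocytes, at 2.57 ± 0.23 log2 units in pMo (limma, adjusted p = 0.000104) and 1.19 ± 0.23 in iMo (limma, adjusted p = 0.0157). The iMo call was lost without iMo DBA2J replicate 1 or iMo C57BL6J replicate 1 (limma, adjusted p = 0.127 and 0.0977). In IM it stood at 706 and 591 TPM in DBA2J against 378 and 435 TPM in C57BL6J, and in AM at 177 and 206 TPM in DBA2J against 149 and 116 TPM in C57BL6J. These differences, 0.67 and 0.53 log2 units, did not pass the test (limma, adjusted p = 0.093 and 0.393). The difference in IM passed after median-of-ratios scaling, without the ribosomal entries Rn45s and Mir6236, and on recovered reads (limma, adjusted p = 0.0251, 0.049 and 0.0389).

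The strain difference of Cd33 also depended on the cell type (F-test by limma, adjusted p = 0.0139). That in AM minus that in pMo was -2.04 ± 0.33 log2 units, and that in IM minus that in pMo -1.90 ± 0.33 (limma, adjusted p = 0.00896 and 0.0156). Its order over cell types was nevertheless alike in the strains, with IM highest and pMo lowest. IM exceeded each other type in both strains. On TPM as deposited AM and iMo did not differ in either (limma, adjusted p = 0.106 in DBA2J and 0.564 in C57BL6J). In the mean of the strains, AM minus iMo was -0.16 as deposited. It was 0.55 after median-of-ratios scaling and 0.54 without the ribosomal entries Rn45s and Mir6236. Neutrophil markers were also highest in IM, at 2904 to 4755 TPM, and their part in the Cd33 levels was not tested. Over the 4 types the mean strain difference was 1.24 ± 0.12 (limma, adjusted p = 3.45e-05).

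Siglecf, the AM and eosinophil receptor, was stained in the sort, so its levels between cell types are given as a description. AM had 112 and 125 TPM in DBA2J and 244 and 234 TPM in C57BL6J. IM had 8.63 and 9.13 TPM in DBA2J and 27.6 and 81.8 TPM in C57BL6J. In iMo and pMo it was at most 1.81 TPM in every library, on at most 24 reads, and 1 iMo DBA2J library had 0 reads, where 3 reads would be worth 0.362 TPM. AM were thus highest in both strains, and DBA2J lay below C57BL6J in both macrophage types without overlap.

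The strain difference of Siglecf passed the test in IM, at -2.30 ± 0.44 log2 units (limma, adjusted p = 0.00801), and in the mean of the types, at -0.999 ± 0.22 (limma, adjusted p = 0.0119). In AM the DBA2J mean was 0.495 times the C57BL6J mean, a difference of -1.01 ± 0.44 that did not pass (limma, adjusted p = 0.395). The IM call was lost without IM DBA2J replicate 1 (limma, adjusted p = 0.0615) and without IM C57BL6J replicate 2 (limma, adjusted p = 0.0513), which held 81.8 TPM against 27.6 TPM in replicate 1. It was also lost with a pseudocount of 0.1 (limma, adjusted p = 0.0919). Eosinophil markers moved the other way in IM, with a sum over 6 genes of 87.4 to 115 TPM in DBA2J and 1.46 to 12.4 TPM in C57BL6J. Most of that sum was Alox15, a lipoxygenase, at 97.8 TPM in DBA2J and 5.17 TPM in C57BL6J, and the granule genes Prg2 and Epx were at 0 in IM of both strains. Between strains in IM 10.5% of all genes were called. Of 10 alveolar macrophage markers, 3 moved with Siglecf in IM, lower in DBA2J (Chil3 at -2.78, Car4 at -2.46 and Atp6v0d2 at -1.67 log2 units), and Ear2 was higher, at 1.38 (limma, adjusted p = 0.000514, 0.00391, 0.00284 and 0.00817). The median difference of the 10 was -1.04, against -0.01 over all genes, while their sum was higher in DBA2J, at 1912 to 2002 TPM against 1114 to 1787 TPM in C57BL6J. Their part in the Siglecf levels was not tested.

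Siglec1, the macrophage adhesion receptor, was lower in DBA2J macrophages. In AM it stood at 82.2 and 79.9 TPM in DBA2J, against 292 and 299.7 TPM in C57BL6J, so the DBA2J mean was 0.274 times the C57BL6J mean. In IM it stood at 86.8 and 69.0 TPM in DBA2J, against 137 and 193 TPM in C57BL6J. The log2 differences were -1.86 ± 0.23 in AM (limma, adjusted p = 0.000877) and -1.06 ± 0.23 in IM (limma, adjusted p = 0.0161). The IM call was lost without IM DBA2J replicate 2 or IM C57BL6J replicate 2 (limma, adjusted p = 0.101 and 0.123).

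In the monocytes the strains did not differ by the test. Siglec1 in iMo was 106 and 61.5 TPM in DBA2J and 130 and 113 TPM in C57BL6J. In pMo it was 11.3 and 11.03 TPM in DBA2J and 9.07 and 8.77 TPM in C57BL6J, the lowest level of the 4 types in both strains. The strain difference in AM minus that in pMo was -2.15 ± 0.33 log2 units (limma, adjusted p = 0.00706). In DBA2J, on TPM as deposited, AM, IM and iMo lay within 0.07 log2 units of each other (limma, adjusted p = 0.833 to 0.998). In C57BL6J AM stood above IM by 0.86 ± 0.23 (limma, adjusted p = 0.00881) and above iMo by 1.28 ± 0.23 (limma, adjusted p = 0.000751). These single-strain contrasts were not refitted after rescaling the libraries. In the mean of the strains, AM minus IM was 0.46 as deposited and up to 1.36 under other settings. AM minus iMo was 0.64 as deposited and up to 1.36.

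Siglech, the DAP12-coupled receptor, was a gene of IM in these libraries. IM had 11.9 and 18.5 TPM in DBA2J and 34.3 and 50.4 TPM in C57BL6J. The other types had at most 1.93 TPM, on 2 to 74 reads per library. IM exceeded every other type in both strains, and AM minus IM was -2.66 ± 0.31 log2 units in DBA2J (limma, adjusted p = 3.95e-05) and -5.14 ± 0.31 in C57BL6J (limma, adjusted p = 2.63e-07). IM of DBA2J was below IM of C57BL6J, with a difference of -1.43 ± 0.31 (limma, adjusted p = 0.0141). That call was lost without IM DBA2J replicate 1 or IM C57BL6J replicate 2 (limma, adjusted p = 0.115 and 0.106), with a pseudocount of 0.1 (0.199), with a filter at a mean of 5 TPM (0.0638) and on recovered reads (0.176). In AM the sign was opposite, with 1.93 and 1.16 TPM in DBA2J against 0.362 and 0.073 TPM in C57BL6J, and did not pass the test (1.06 log2 units, limma, adjusted p = 0.114). It passed without the ribosomal entries Rn45s and Mir6236, at 1.90 (limma, adjusted p = 0.0309), and on recovered reads, at 2.84 (limma, adjusted p = 0.0232).

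Markers of plasmacytoid dendritic cells were measured beside Siglech. Of 10 markers 8 passed the filter, and in IM against iMo 4 of them were higher and 2 lower (limma, adjusted p under 0.05). Of all genes 37.3% were called there. The median log2 difference of the 8 markers was 0.88, against 0.10 over all genes. Tcf4, Cox6a2, Lag3 and Atp1b1 were higher in IM, as Siglech was, at 0.70, 1.81, 1.14 and 1.33 log2 units (limma, adjusted p = 0.0112, 0.0204, 0.00673 and 0.00067). Cox6a2 was at 0 in iMo of both strains. Bst2 and Smim5 were lower in IM, at -1.12 and -1.30 (limma, adjusted p = 0.00126 and 2.7e-05). Between strains in IM, Lag3 was lower in DBA2J (-1.80, limma, adjusted p = 0.0137), as Siglech was, and Atp1b1 and Smim5 were higher (2.07 and 1.06, limma, adjusted p = 0.0022 and 0.00602). The sum of the 10 genes, to which Bst2 gave the largest part, was 80.0 to 89.4 TPM in IM DBA2J and 75.7 to 133 TPM in IM C57BL6J, and 92.0 to 129 TPM in iMo DBA2J and 113 to 171 TPM in iMo C57BL6J. Whether such cells have a part in the IM levels was not tested.

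**Figure D3:**
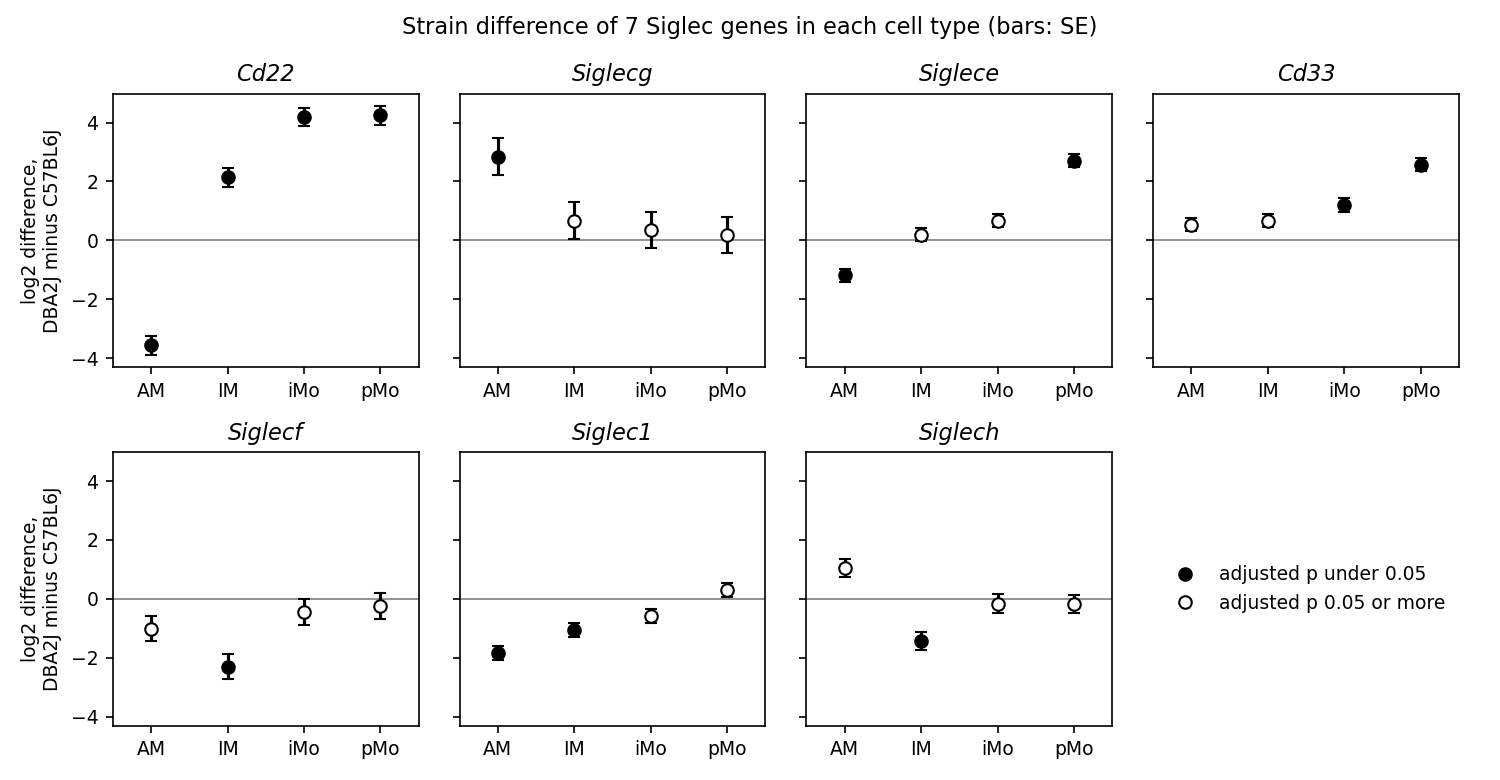
Log2 difference of each Siglec gene, DBA2J minus C57BL6J, in each cell type, with bars of 1 SE from the fit over 16 libraries and filled points where the adjusted p was under 0.05. Cd22, Siglece and Siglec1 have their lowest value in AM, at -3.57, -1.19 and -1.86, and their highest in pMo, at 4.24, 2.70 and 0.30.

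Counted over the family, strain differences were called at these rates by limma at an adjusted p under 0.05. In AM 4 of 7 genes passed (Cd22, Siglec1 and Siglece lower, Siglecg higher in DBA2J), where 3.28% of all genes did. In IM 4 of 7 passed, with Cd22 higher and Siglecf, Siglec1 and Siglech lower, where 10.5% of all genes did. In iMo 2 of 7 passed against 3.47% of all genes, and in pMo 3 of 7 against 3.66%, all of them higher in DBA2J. In the mean over the types 5 of 7 passed, where 11.7% of all genes did. The interaction was called for 5 of 7, where 4.03% of all genes were called.

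Between cell types, the averages over both strains were called as follows. AM against IM differed for 7 of 7 genes, where 70.2% of all genes did, with 5 lower in AM. AM against iMo differed for 4 of 7, where 66.2% did, and AM against pMo for 6 of 7, where 61.8% did. IM against iMo differed for 6 of 7, where 37.3% did, and IM against pMo for 6 of 7, where 39.5% did. iMo against pMo differed for 3 of 7, where 25.3% did, with Cd22 lower and Siglec1 and Cd33 higher in iMo. The shares of the AM contrasts were above those of all genes against IM and pMo and below against iMo. With 7 genes these shares are coarse and were not tested. Each AM contrast includes Siglecf, whose protein was stained in the sort.

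Several of these averages hide a strain difference. For Cd22, AM minus pMo was -3.83 ± 0.23 in the average, -7.74 ± 0.32 in DBA2J and 0.073 ± 0.32 in C57BL6J (limma, adjusted p = 0.867 in C57BL6J). For Siglece, AM minus pMo was -1.70 ± 0.16 in the average, -3.64 ± 0.22 in DBA2J and 0.25 ± 0.22 in C57BL6J (limma, adjusted p = 0.367 in C57BL6J). The sign for Cd33 between AM and iMo depended on the scaling of the libraries, at -0.16 as deposited (limma, adjusted p = 0.403) and 0.55 after median-of-ratios scaling (limma, adjusted p = 0.00202). That scaling moved the median AM minus iMo difference of all genes to 0.02, against -0.55 as deposited.

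A further pair of mouse Siglecs was in the table. Mag, a Siglec of myelin-forming cells next to Cd22 on chromosome 7, was low, at 0.643 to 9.05 TPM, and was highest in AM. In pMo it was 1.80 and 3.04 TPM in DBA2J against 0.643 and 0.678 TPM in C57BL6J (log2 difference 1.02 ± 0.22, limma, adjusted p = 0.0258). Siglec15, a Siglec of osteoclasts, was at 0 in 12 of 16 libraries and reached at most 0.181 TPM.

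The RNA of most genes that act below the receptors was lower in AM than in the other types. Of 12 genes for kinases, phosphatases and adaptors of Siglec signalling, 11 were lower in AM than in IM, 12 were lower than in iMo and 11 were lower than in pMo (limma, adjusted p under 0.05), where 61.1%, 54.3% and 46.6% of all genes were lower. After median-of-ratios scaling, which brought the median of all genes to between 0 and 0.06 in these contrasts, 6, 11 and 10 of the 12 were lower, against 28.8%, 28.3% and 30.2% of all genes. Tyrobp, which codes for DAP12, was 330 TPM in AM and 519 TPM in IM of DBA2J, and 486 TPM in AM and 478 TPM in IM of C57BL6J, and did not differ by the test from IM or pMo (limma, adjusted p = 0.145 and 0.0842). The median log2 difference of the 12 was -1.65 for AM minus pMo, against -0.42 over all genes. Lyn, the Src family kinase that phosphorylates Cd22 in B cells, averaged 26.4 TPM in AM DBA2J and 19.8 TPM in AM C57BL6J, against 114 TPM in iMo DBA2J and 105 TPM in iMo C57BL6J (AM minus iMo, -2.22 ± 0.26, limma, adjusted p = 2.14e-05). Socs3, an inhibitor of cytokine signalling, was at -4.24 ± 0.15 for AM minus pMo (limma, adjusted p = 1.7e-09). Plcg2, a phospholipase, and Ptpn11, which codes for SHP-2, were at -2.01 ± 0.19 and -1.68 ± 0.16 for AM minus pMo, and Cbl, a ubiquitin ligase, at -1.76 ± 0.17 for AM minus iMo (limma, adjusted p = 3.24e-06, 3.4e-06 and 3.63e-06).

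Between strains 1 of these 12 partners was called in the mean over the types, near the 11.7% of all genes. It was Socs3, at -0.59 ± 0.11 (limma, adjusted p = 0.00371). Their median strain difference in pMo was 0.08, against -0.15 over all genes. Ptpn6, which codes for SHP-1, the phosphatase recruited by Cd22, averaged 374 TPM in pMo DBA2J and 326 TPM in pMo C57BL6J.

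Of 33 genes that make, attach, cleave or degrade sialic acid, 20 passed the filter. Against IM, 1 was higher and 16 were lower in AM, and against both iMo and pMo 2 were higher and 13 lower (limma, adjusted p under 0.05), beside the same shares of all genes as above. For iMo the 13 of 20 lie near that share as deposited. With the libraries scaled by median of ratios, AM had 4 of them higher and 11 lower than IM, 5 higher and 10 lower than iMo, and 4 higher and 12 lower than pMo. Of all genes 28.8%, 28.3% and 30.2% were then lower, and the 10 of 20 for iMo lie above that share. The median for AM minus IM was -1.09, against -0.68 over all genes. The named differences were all lower in AM than in IM or pMo. St8sia4, a polysialyltransferase, was -4.30 ± 0.27, Cmah, which makes the sialic acid Neu5Gc that mouse Cd22 prefers, -3.71 ± 0.21, and St3gal6, a sialyltransferase, -3.39 ± 0.21 for AM minus IM (limma, adjusted p = 1.4e-07, 6.13e-08 and 1.46e-07). St6gal1, the enzyme that makes the linkage bound by Cd22, averaged 0.486 TPM in AM and 13.04 TPM in IM of DBA2J, and 2.36 TPM in AM and 15.9 TPM in IM of C57BL6J (AM minus IM, -2.79 ± 0.14, limma, adjusted p = 2.76e-08). St3gal5 and St3gal1, also sialyltransferases, were -3.05 ± 0.19 and -2.82 ± 0.17 for AM minus pMo (limma, adjusted p = 1.1e-07 and 1.13e-07).

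Between strains 3 of the 20 were called in the mean over the types, near the 11.7% of all genes. Npl, the lyase that degrades sialic acid, was higher in DBA2J by 1.25 ± 0.13 (limma, adjusted p = 8.2e-05), averaging 8.71 TPM in AM DBA2J against 0.364 TPM in AM C57BL6J. The strain differences were 0.48 ± 0.12 for St6galnac6, a sialyltransferase, and -0.60 ± 0.13 for St3gal5 (limma, adjusted p = 0.0243 and 0.0117).

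Near the 7 genes, within their spans and 10 kb to either side, peaks of the 8 lists merged into 44 regions. Of these 5 (11.4%) were in all 8 lists, where 13.9% of the 91184 merged regions of the genome were, and 18 (40.9%) were in 1 list, against 35.8%. Regions in DBA2J lists only numbered 6 (13.6%, against 7.49% genome-wide) and in C57BL6J lists only 18 (40.9%, against 37.0%). The lists differ in length, from 24429 peaks in IM DBA2J to 70013 in IM C57BL6J, and presence in a list has no replicate, so no test was made. A peak's rank is its place by the authors' score within its own list. Exons and introns were not annotated here.

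Cd22 had 6 regions, and none was shared by the strains. The region over the start site of the deposited table (chr7:30880238-30880438) was in the pMo DBA2J list only, the group with the highest Cd22 RNA. Its score exceeded 23.0% of that list. Across the genome 156 of 91184 regions (0.171%) were in that list alone. A region 10.9 kb inside the gene (chr7:30869378-30869589) was in both DBA2J macrophage lists, AM and IM, and in no other, as were 47 regions of the genome (0.0515%). The DBA2J levels in these groups were 3.35 TPM in AM and 184 TPM in IM, so this region was listed at low and at high RNA.

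A different region inside Cd22 (chr7:30873152-30873372), 7.08 kb from the start, was listed in IM and pMo of C57BL6J, as was one beyond its end (chr7:30859975-30860193). A further 2 regions were in IM C57BL6J only. No region of Cd22 was in either iMo list or in AM C57BL6J, although Cd22 RNA stood at 148 and 187 TPM in iMo DBA2J and at 50.9 and 47.5 TPM in AM C57BL6J.

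**Figure D4:**
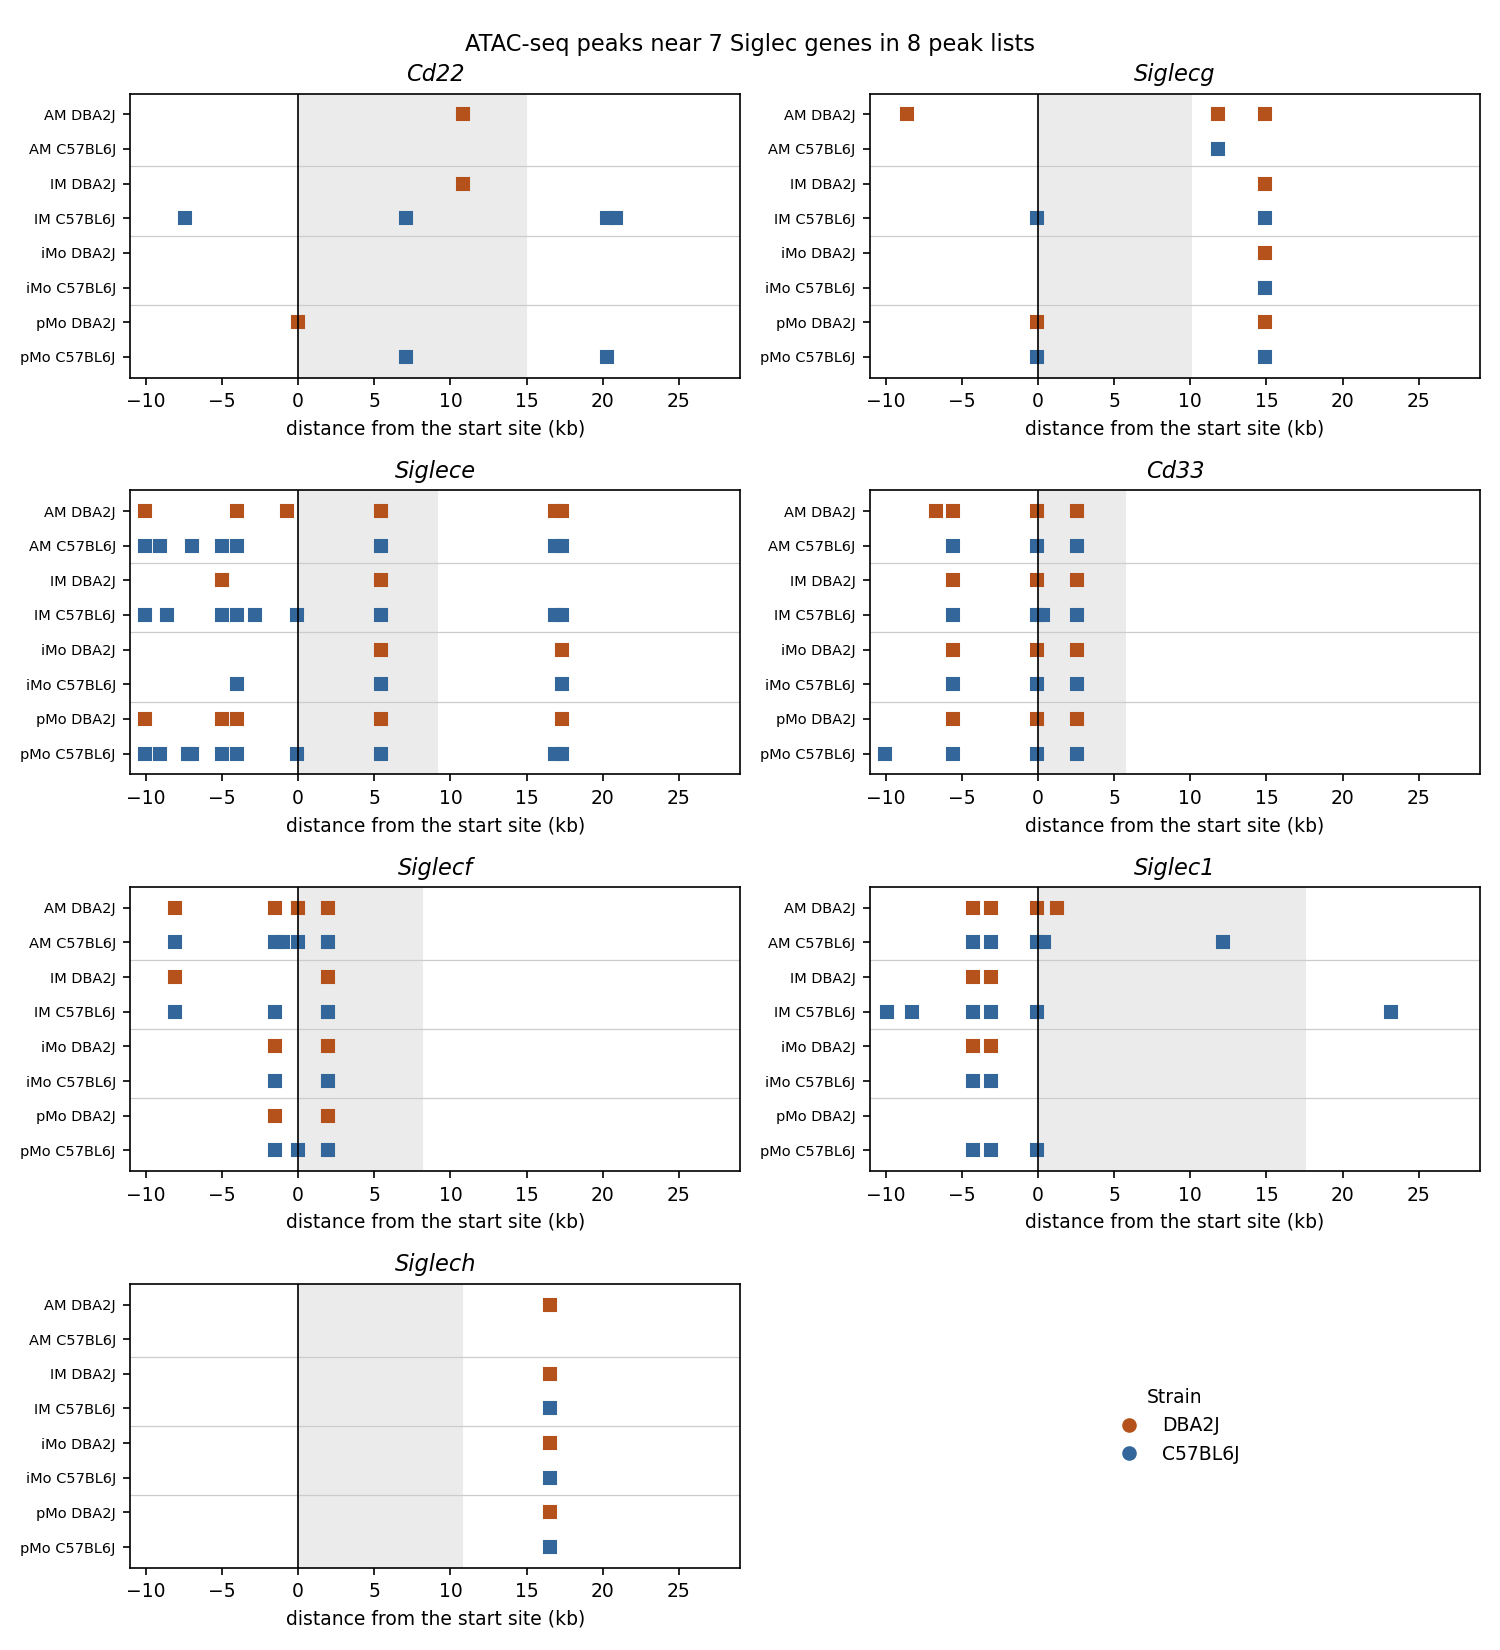
Regions with an ATAC-seq peak near each Siglec gene, placed by distance of their centre from the start site in kb along the direction of transcription, with a square in the row of each peak list that held them and the gene's span in grey. Cd22 has no region shared by DBA2J and C57BL6J lists, while 3 regions of Cd33 are in all 8 rows.

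Cd33 showed the opposite picture. Of its 6 regions 3 were in all 8 lists: the start site, a region 2.59 kb inside the gene (chr7:43530436-43530725) and one at -5.56 kb, upstream (chr7:43538616-43538843). The start site ranked above 94.7% of peaks in AM DBA2J and 95.6% in AM C57BL6J, and above 67.7% in pMo DBA2J and 89.5% in pMo C57BL6J. Its RNA was 6.22 times as high in pMo DBA2J as in pMo C57BL6J, with the same 3 regions listed in both.

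Siglece had 13 regions, 1 of them, 5.44 kb inside the gene (chr7:43654606-43654841), in all 8 lists. The region over its deposited start site, which overlaps the printed promoter, was in IM and pMo of C57BL6J only. The RefSeq span of Siglece also took in regions upstream of that start. The pMo DBA2J list held those at -4.00, -4.97 and -10.1 kb, and the IM DBA2J list that at -4.97 kb. Use of another start was not tested. The DBA2J lists of IM and pMo did not hold the region over the deposited start. Siglece RNA there was 83.2 ± 15.5 and 103 ± 17.5 TPM (SD, n = 2), against 14.9 ± 0.998 TPM in pMo C57BL6J.

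At Siglecf the start site, which holds the stretch shared with Cd33, was listed in both AM groups and in pMo C57BL6J. A region at -8.05 kb (chr7:43343152-43343423) was in the 4 macrophage lists and in no monocyte list, and one 1.98 kb inside the gene (chr7:43353193-43353456) was in all 8. Each monocyte list thus held at least 2 regions of the gene, although its RNA was at most 1.81 TPM there. At Siglec1 the start site (chr2:131086734-131086957) was in both AM lists, IM C57BL6J and pMo C57BL6J. The 2 regions at -3.09 and -4.26 kb were in 7 lists, missing only from pMo DBA2J, where Siglec1 RNA (11.2 ± 0.210 TPM) was no lower than in pMo C57BL6J (8.92 ± 0.209 TPM, SD, n = 2).

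The start site of Siglecg (chr7:43408107-43408322) was listed in pMo DBA2J, pMo C57BL6J and IM C57BL6J, and not in AM DBA2J, where its RNA exceeded that of AM C57BL6J. AM DBA2J held 3 regions of Siglecg and AM C57BL6J held 1. Siglech had 1 region, 16.6 kb past its start (chr7:55784628-55784859), in every list but AM C57BL6J, including those of monocytes in which its RNA was near 0. No region lay over its start site.

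The genes whose log2 level was most like each Siglec over the 16 libraries were sought among 9931 candidates, as a description, since libraries of a cell type share most of their pattern. Siglecf was most like Plet1os and Plet1 (Pearson r = 0.992 and 0.991), then Sh3bgrl2, Cidec, a lipid droplet protein, and Ctsd, which codes for cathepsin D. Siglech was most like Pla2g2d, a secreted phospholipase (0.986), Gas6, a ligand of TAM receptors (0.984), Pmp22, Kitl and Syngr1. Siglec1 was most like Ms4a8a (0.959), with Tnfaip2, Irf2bp2, Akr1a1 and Aco1 next. Cd33 was most like Zfp395 (0.929), with Kif1b, Mfhas1, Slc37a2 and B3gnt2 next.

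The likeness was weaker for the other 3 genes. Siglece was most like Tcta (0.883) and Cd72, an inhibitory receptor of B cells (0.870), with Swap70, Trim7 and St6gal1 next. Siglecg was most like Gimap3 (0.865) and Pde7a (0.865), with Osbpl8, Ablim1 and Ets1 next. Cd22 was most like H2-T-ps (0.837), Tspan32 (0.830), Mir1962 (0.817), Mgme1 (0.801) and Siglece (0.776), the only case in which a family member was among the 5 nearest genes of another.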

How the data were processed

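RNA levels are the authors' TPM per gene, and peaks are the authors' lists of reproducible peaks with a score per peak, 1 deposited list for each cell type and strain from 2 ATAC-seq libraries. Per the submitters' processing notes the build was mm10, the genome of C57BL6J, and STAR, Bowtie and HOMER are named without version or role. Whether counting used strand is not stated there. The effect of DBA2J variants on alignment was not tested. Multiplying TPM by the deposited length gave whole reads (within 0.1 read) for 100% of testable values in every library. Those reads gave the depths, while all tests used TPM.

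The limma package (3.58.1, in R 4.3.3) was run on log2(TPM + 1), with a mean for each of 8 groups, a variance trend and 8 residual degrees of freedom. Genes averaging 1 TPM or more (12277) were tested, with Benjamini-Hochberg adjustment within each contrast. The labels do not say whether the replicate number pairs libraries. Residuals of same-numbered libraries correlated little (28 pairs of groups, median 0.02), so no block was used. The fit was tested on simulated data. Peaks overlapping by at least 1 bp were merged. Promoters were aligned with Biopython 1.88, strand as transcribed, in Python 3.11.15.

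The 7 genes, the lists and the tests were chosen with earlier results of these data known. All 7 are named, with up to 6 called genes per pathway list by size of the cell type difference and those called for the strain mean, and the 5 most alike genes of each with a group mean of at least 5 TPM. Of the genes this rule takes from the lists, 1 is not reported here. The promoter alignment and the B cell ratios were added, and the marker genes of other cell types named, after the data were seen. Alternatives covered pseudocount, filter, scaling, variance trend, replicate block, single libraries, single strains, recovered reads, peak window and peak score.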

Additional observations from a re-analysis of the deposited data

Results flagged for a closer look

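The strain difference of 5 of the 7 genes differed between cell types by limma's F-test of the interaction, with Benjamini-Hochberg adjusted p of 1.73e-05 for Cd22, 0.000384 for Siglece, 0.0139 for Cd33, 0.0175 for Siglec1 and 0.0368 for Siglech. On the log2 scale, DBA2J minus C57BL6J, Cd22 was -3.57 in AM and 4.24 in pMo, and Siglece -1.19 in AM and 2.70 in pMo. Cd33 was 0.53 in AM and 2.57 in pMo, and Siglec1 -1.86 in AM and 0.30 in pMo. Siglech was 1.06 in AM and -1.43 in IM.

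Cd22 and Siglece were called in all 24 alternatives of this test, with adjusted p up to 0.000338 and 0.0026. Cd33 was called in 23, losing the call without pMo DBA2J replicate 2 (limma, adjusted p = 0.0551). Siglec1 was called in 19, losing the call without any 1 of the 4 AM libraries (limma, adjusted p = 0.0574 to 0.0691) or pMo DBA2J replicate 1 (0.0542). Siglech was called in 11 of 24, with adjusted p up to 0.145. Groups of 2 libraries are too small for a test of single libraries that stand apart.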

How the results depend on the processing

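Depth, at 6676151 to 22616615 reads in genes, limits Siglecf in monocytes and Siglech outside IM, which rest on a few reads, and groups of 2 libraries limit all tests. Most counts of called genes stayed within 1.5 times under each alternative. With a pseudocount of 0.1 the count for the strain difference in IM was 2 of 7 genes instead of 4. For iMo against pMo it was 5 after median-of-ratios scaling, 6 without the ribosomal entries Rn45s and Mir6236, and 5 on CPM of recovered reads, instead of 3. Leaving out a library gave 2 to 4 genes for the strain difference in AM, 1 to 5 in IM, 1 to 2 in iMo and 3 to 7 for the interaction. The AM count fell to 2 without AM DBA2J replicate 1 or AM C57BL6J replicate 1. The IM count fell to 1 without IM C57BL6J replicate 2 and to 2 without IM DBA2J replicate 1. The iMo count fell to 1 without iMo DBA2J replicate 1 or iMo C57BL6J replicate 1. The interaction count fell to 3 without any AM library or either pMo DBA2J library. The regions near the 7 genes numbered 24 in the better-scored part of each list and 25 within 5 kb, instead of 44.

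The AM minus iMo difference of Cd33 (-0.16) was 0.55 after median-of-ratios scaling and 0.54 without the ribosomal entries. Within DBA2J alone IM minus pMo of Siglece was -0.31. Within C57BL6J alone Cd22 was 0.26 for AM minus IM, 2.45 for AM minus iMo and 0.073 for AM minus pMo, and Siglece was 0.25 for AM minus pMo. The cause of these changes was not tested.

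With the replicate number as a block, the interaction was called for 4 genes instead of 5, losing Siglech (limma, adjusted p = 0.0507), and no other count changed. Same-numbered libraries correlated by more than 0.1 in 5 of 28 pairs of groups, at most 0.20. Such correlations cannot decide whether the numbers pair libraries, which the labels do not state. The recovered reads, the single-strain fits and the rescaled counts of signalling and sialic acid genes were chosen after seeing the data.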

Other observations

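The 2 IM C57BL6J libraries, the least alike pair of replicates, differed in several Siglecs in opposite directions. Replicate 1 had 40.2 TPM of Siglecg and 27.6 TPM of Siglecf, and replicate 2 had 6.60 TPM of Siglecg and 81.8 TPM of Siglecf. Summed marker levels differed too. B cell markers stood at 372 TPM in replicate 1 and 90.8 TPM in replicate 2, alveolar macrophage markers at 1114 and 1787 TPM in the same order, and interstitial macrophage markers at 8295 and 16000 TPM. Their part in the Siglec levels was not tested.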
